A study of Xenopus tropicalis with 45 samples.

Results

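Animal cap (AC) explants of *Xenopus tropicalis* embryos exposed to Trichostatin A (TSA) were compared with explants exposed to its solvent, DMSO, at the early gastrula (Nieuwkoop and Faber st10.5). The comparison takes in every RNA-seq library that carries these labels, which is 4 of the 16 RNA-seq libraries and 4 of the 45 samples of the series, and all 28850 annotated genes. The TSA group has 2 libraries from wildtype embryos kept in 100 nM TSA from the 4-cell stage. The DMSO group has 2 libraries from wildtype embryos kept in an equal volume of DMSO over the same time. Caps were cut from late blastulae, with the inhibitor present during dissection, and grown on to st10.5. The replicates are described as independent biological ones, and each library measures explants in bulk. Used beside them were vegetal mass (VG) explants of the same experiment (TSA and DMSO, 2 libraries each) and AC and VG explants of a second experiment with 10 mM valproic acid (VPA) or water (2 libraries each).

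Histone deacetylases (HDACs) take acetyl groups off lysines of histone tails and of other proteins, and acetylated histones are typical of chromatin that is open to transcription. TSA blocks the zinc-dependent enzymes of class I and class II, so that acetylation accumulates, and VPA, a branched fatty acid unlike the hydroxamate TSA, inhibits mainly class I enzymes. The animal cap is the presumptive ectoderm. Left alone it forms epidermis under bone morphogenetic protein (BMP) signals, and it makes neural tissue, mesoderm or endoderm when it receives other signals. The vegetal mass is the presumptive endoderm.

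The 4 AC libraries held 22034854 and 53281938 expected counts with TSA, against 21680996 and 54350327 with DMSO. Genes annotated as ribosomal RNA took 2.18% and 39.4% of the counts with TSA, against 1.602% and 35.0% with DMSO, so replicate 2 stood apart from replicate 1 in both groups. VG libraries had 0.73% to 0.999%. The difference between annotated and effective gene length was 100 bases in all 4 AC libraries and 198.88 to 202.05 bases in VG, so both tissues were quantified with different fragment lengths. Levels are therefore given as CPM, read counts scaled to library size with TMM factors, which compare the same gene between libraries, and TPM, which also divide by gene length, are used where different genes are compared, in sums over lists and in levels set beside VG. The effect of the fragment lengths on levels set beside VG was not tested. TPM carry no TMM factors and keep ribosomal RNA genes in their total, which lowers TPM of other genes in AC replicate 2. With TSA *sox3* had 1236 and 903.6 TPM, against 796 and 713.6 CPM. The size of this in the TPM sums was not tested. The median absolute difference between replicates was 0.425 on the log2 scale with TSA and 0.428 with DMSO, against 0.28 and 0.282 in VG.

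The tissue label was checked with marker genes. The 6 animal markers *foxi4.2*, *foxi1*, *grhl3*, *tfap2a*, *dlx3* and *krt12.4* summed to 581 and 314 TPM in AC with TSA, against 2256 and 1515 TPM in AC with DMSO, and to between 48.9 and 65.4 TPM in the 4 VG libraries of the experiment. The 6 vegetal markers *sox17a*, *sox17b.1*, *sox17b.2*, *mixer*, *gata5* and *foxa4* summed to 226 and 126 TPM in AC with TSA and to 28.6 and 16.7 TPM in AC with DMSO, against 3731 to 4331 TPM in VG. DMSO caps thus carried the markers of their label, and TSA caps had less of the animal and more of the vegetal sum, with no overlap between the groups. In bulk tissue, fewer cells of a type and less RNA per cell cannot be told apart.

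TSA raised 197 genes and lowered 153 in AC. These are 1.29% and 1.00% of the 15232 genes that passed the filter on low counts, and 2.30% together. A call required a Benjamini-Hochberg adjusted p under 0.05 in edgeR's quasi-likelihood test and a change above 2-fold. At an unadjusted p under 0.05 in that test there were 1987 genes in both directions together. The median change of the genes that rose was 8.7-fold, or 8.67-fold with the 6 genes that had 0 counts with DMSO set at their bound, and that of the genes that fell was 4.28-fold, while the median log2 fold change of all genes tested was 0.00. In every called gene both TSA libraries lay beyond both DMSO libraries, which also held for 17.2% of all genes tested in the upward direction and 14.1% in the downward direction. Genes that rose had a median of 15.6 TPM with TSA, against 1.38 TPM with DMSO, and 70 of the 197 were under 1 TPM in both DMSO libraries. Genes that fell had a median of 9.27 TPM with TSA, against 37.4 TPM with DMSO, and 24 of the 153 ended under 1 TPM in both TSA libraries. Over all genes tested the median was 13.5 TPM with DMSO, and 2262 of 15232 were under 1 TPM in both DMSO libraries. Rises thus started from lower levels than falls, as the plot of change against level shows. Part of this follows from the filter and the call, since a gene near 0 with DMSO can be called only higher.

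**Figure D1:**
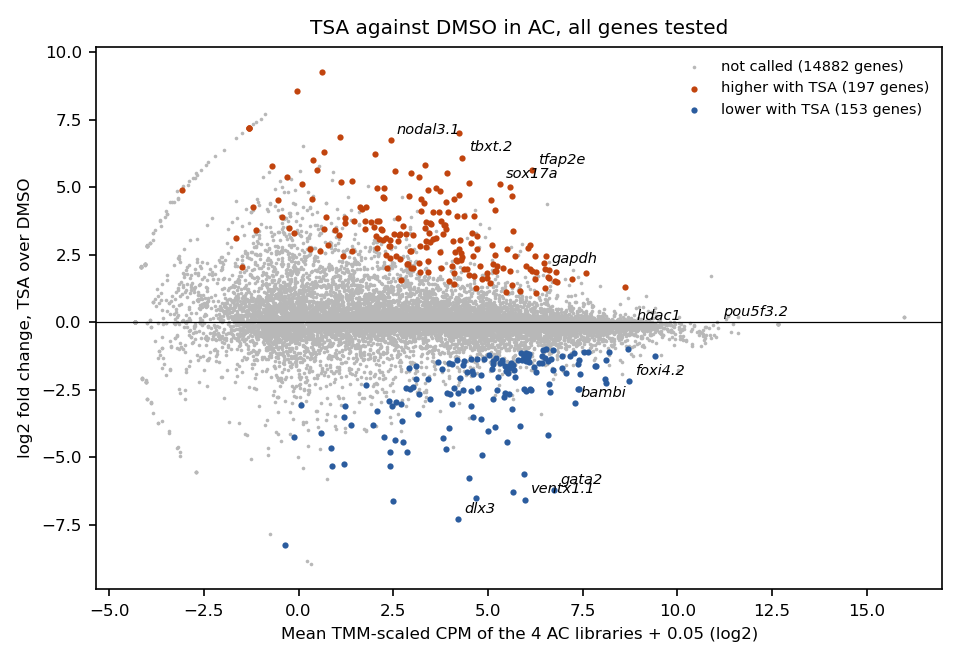
Each point is 1 of the 15232 genes tested, placed by its mean level in the 4 AC libraries (log2 of TMM-scaled CPM plus 0.05) and its log2 fold change, TSA over DMSO. Red points are the 197 genes called higher and blue points the 153 called lower, and rises reach down to lower levels than falls.

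The number of calls depended on how the spread was estimated. It came from all 8 libraries of the TSA experiment. Replicates differed by a median of 0.425 and 0.428 on the log2 scale in AC, against 0.28 and 0.282 in VG. A spread shared by both tissues can thus be too small for AC and too large for VG, which bears on every SE and adjusted p below. With only the 4 AC libraries edgeR called 0 genes, although 1763 had an unadjusted p under 0.05. DESeq2 on the 8 libraries called 522 higher and 429 lower, with 349 of the 350 genes among them, and edgeR on all 16 libraries called 351 and 234. A replicate block sets TSA and DMSO libraries of 1 number side by side. Within each tissue of the 8 libraries it gave 1051 higher and 623 lower, and in only the 4 AC libraries 852 and 571. The labels do not say that the numbers mark pairs, but differences between replicates correlated between AC TSA and AC DMSO (Pearson r = 0.843). Without a block these shared differences count as error in the test. At an unadjusted p under 0.05 there were 5202 genes with the block within each tissue, against 1987 without it. Counts and adjusted p given below for edgeR are from the fit of 8 libraries without a block unless stated. A gene that missed the threshold there may pass it with a block. Each AC library mattered. Without TSA replicate 1 the calls were 47 higher and 29 lower, without TSA replicate 2 they were 57 and 19, without DMSO replicate 1 they were 15 and 16, and without DMSO replicate 2 they were 44 and 30. Of the 350 genes, 25 stayed called in all 4 of these fits and 236 in none. Without replicate 2 of both groups, which is rich in ribosomal RNA, 2 genes rose and 0 fell in edgeR, with 1612 genes at an unadjusted p under 0.05. Removing the ribosomal RNA genes alone left 204 higher and 165 lower. In limma on log2 of TPM plus 0.1 the calls were 217 higher and 96 lower, so that 69.3% were higher, against 56.3% in edgeR.

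The 12 largest rises among named genes included ligands, receptors and transcription factors that were low in DMSO caps. *nodal3.1*, a Nodal-family ligand of the blastula organizer, had 12.8 and 8.44 CPM with TSA, against 0 and 0.155 CPM with DMSO (log2 fold change 6.75 ± 0.67 SE, adjusted p = 0.00858). Its DMSO libraries held 0 and 6 counts, and its fitted change ran between 3.85 and 11.08 over the alternatives. *tbxt.2*, a copy of the mesodermal T-box gene Brachyury, had 55.9 and 22.9 CPM with TSA, against 0.782 and 0.389 CPM with DMSO (6.1 ± 0.67, adjusted p = 0.0112). *tfap2e*, an AP-2 family transcription factor, had 153 and 127 CPM with TSA, against 1.78 and 3.76 CPM with DMSO (5.64 ± 0.48, adjusted p = 0.00623). All 3 were low in both DMSO libraries. *foxq1*, a forkhead factor, rose by 6.24 ± 0.88 on the log2 scale (adjusted p = 0.023), the potassium channel gene *kcnj2* by 5.81 ± 0.89 (adjusted p = 0.0276) and the parathyroid hormone receptor gene *pth2r* by 5.61 ± 0.70 (adjusted p = 0.0164). *ebf2*, a factor of neuron and mesoderm differentiation, had 18.3 and 12.2 CPM with TSA, against 0.13 and 0.492 CPM with DMSO. *bcam*, a laminin receptor, had 16.7 and 18.8 CPM with TSA, against 0.434 and 0.414 CPM with DMSO. *ina*, a neuronal intermediate filament, and *hsp70*, a heat shock chaperone, rose by 5.21 ± 0.81 and 5.16 ± 0.66 on the log2 scale.

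For 2 of the 12 the DMSO libraries held too few counts for a fitted ratio. The orphan receptor gene *gpr85* had 183 counts over the TSA libraries, against 2 over the DMSO libraries, a ratio of 87.9 with an exact 95% counting interval of 24 to 732. *sia2*, a homeobox gene that maternal Wnt signals switch on in the organizer, had 88 counts, against 2, a ratio of 42.3 with an interval of 11.4 to 355. Both intervals cover counting error only. Counts with DMSO were also low for *foxq1* (3 and 3), *ina* (1 and 8) and *kcnj2* (2 and 22). Over the alternatives their fitted log2 fold changes ran from 2.59 to 6.56, 1.93 to 6.80 and 2.65 to 7.77.

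The 12 largest falls were led by regulators of the epidermis and of the ventral side. *dlx3*, an epidermal homeobox gene on chromosome 10 (14661908 to 14670732, build v10.0), had 0.32 and 0.153 CPM with TSA, against 30.8 and 42 CPM with DMSO (log2 fold change -7.29 ± 0.56, adjusted p = 0.0131). *gata2*, a GATA factor of ventral ectoderm and later of blood on chromosome 4 (135403346 to 135415633), had 2.88 and 2.81 CPM with TSA, against 219 and 203 CPM with DMSO (-6.21 ± 0.29, adjusted p = 0.00111). *szl*, a secreted feedback inhibitor in the BMP pathway, had 2.64 and 2.2 CPM with TSA, against 124 and 117 CPM with DMSO (-5.64 ± 0.37, adjusted p = 0.00498). The groups lay apart in every called gene, and in these 3 the gap was wide. *ventx1.1* and *ventx1.2*, BMP-induced homeobox genes, fell by 6.58 ± 0.40 and 6.29 ± 0.46 on the log2 scale (adjusted p = 0.00445 and 0.00571). *foxi4.1*, a forkhead factor of the ectoderm, fell by 6.64 ± 1.04, the cement gland gene *ag1* by 6.50 ± 0.53, *dleu7* by 5.78 ± 0.39 and the Krüppel-like factor gene *klf3* fell by 5.34 ± 0.95. *atoh1*, a proneural factor, had 0.16 and 0.333 CPM with TSA, against 14.3 and 6.19 CPM with DMSO, and *fign*, a microtubule-severing enzyme, had 0.12 and 0.102 CPM with TSA, against 4 and 4.74 CPM with DMSO. *prdm12*, a PRDM-family factor, had 0 counts in both TSA libraries, against 91 counts over the DMSO libraries, and was at least 31.6-fold lower when 3 counts over the group are taken as the floor.

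**Figure D2:**
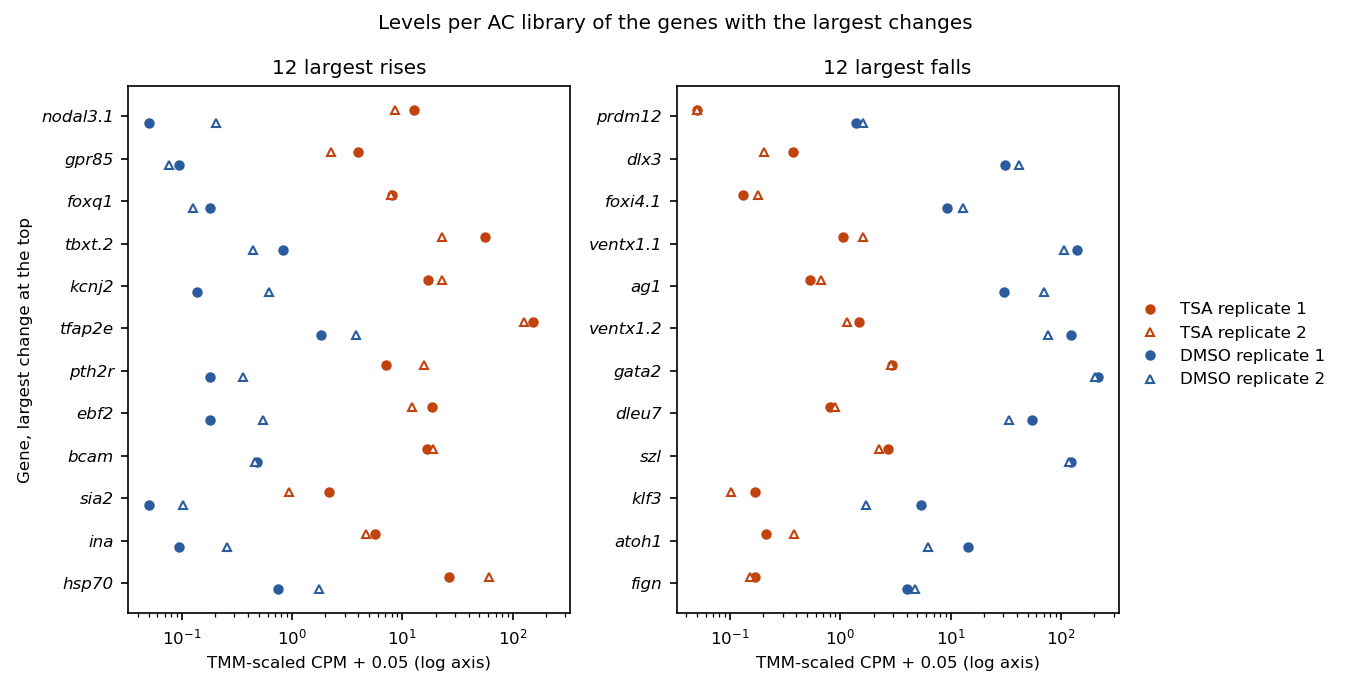
TMM-scaled CPM plus 0.05 on a log axis for the 12 largest rises (left) and the 12 largest falls (right) among named genes, with TSA libraries in red above DMSO libraries in blue, replicate 1 as circles and replicate 2 as open triangles. The groups do not overlap in any of the 24 genes, which in TPM was a condition for choosing them. Over all genes tested the groups lay apart upward in 17.2% and downward in 14.1% by CPM. The red symbols of *prdm12* stand for 0 counts.

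The called genes with the highest TPM changed by smaller factors. *atp1b1*, a sodium pump subunit, had 352 and 243 CPM with TSA, against 92.8 and 75.2 CPM with DMSO (log2 fold change 1.82 ± 0.23, adjusted p = 0.0159). The glycolytic gene *gapdh*, often used as a reference gene in other assays, had 161 and 129 CPM with TSA, against 41.2 and 32.8 CPM with DMSO (1.97 ± 0.35, adjusted p = 0.0427). *hes7.1*, a repressor downstream of Notch, had 134 and 109 CPM with TSA, against 18.9 and 14.8 CPM with DMSO (2.86 ± 0.29, adjusted p = 0.00931). Like every gene called higher, all 3 were higher in each TSA library than in either DMSO library. *hexim1*, an inhibitor of the elongation factor P-TEFb, rose by 1.51 ± 0.26, *prxl2b* by 2.69 ± 0.28 and the lipolysis inhibitor gene *g0s2* by 2.08 ± 0.25 on the log2 scale. On the falling side the most abundant were *foxi4.2*, *ventx2.2*, *ventx2.1*, *tfap2a*, *bambi* and the splicing factor gene *rbm39*. *rbm39* had 291 and 264 CPM with TSA, against 565 and 548 CPM with DMSO, and lay just past the 2-fold limit (-1.01 ± 0.15, adjusted p = 0.028).

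Part of the genes of ectoderm and epidermis fell. Of 36 list members in the files 34 were tested, 10 fell, 1 rose, and the median log2 fold change was -1.29, against 0.00 over all genes tested. The 10 were *gata2*, *dlx3*, *msx1*, *grhl3*, *foxi4.2*, *klf5*, *foxi4.1*, *kctd15*, *tfap2a* and *dlx6*, and the exception was *tfap2e*. With the replicate block within each tissue 20 members were called lower and 3 higher, against 623 and 1051 of all genes tested. Without the block 1.00% of all genes tested fell and 1.29% rose. *foxi4.2*, a forkhead activator of early ectoderm on chromosome 1 (18302343 to 18304330), had 174 and 128 CPM with TSA, against 763 and 609 CPM with DMSO (-2.18 ± 0.33, adjusted p = 0.0274). *grhl3*, an activator of epidermal barrier genes, had 134 and 71.1 CPM with TSA, against 444 and 442 CPM with DMSO (-2.11 ± 0.30, adjusted p = 0.024). *tfap2a*, which drives epidermis and neural crest, had 117 and 75 CPM with TSA, against 526 and 397 CPM with DMSO (-2.27 ± 0.40, adjusted p = 0.0417). Each of these 3 kept a clear level in TSA caps, unlike *dlx3*, which nearly vanished. *dlx5* had 22.6 and 7.01 CPM with TSA, against 184 and 125 CPM with DMSO, and missed the threshold (-3.39 ± 0.71, adjusted p = 0.0678). *foxi1* (-1.90 ± 0.52, adjusted p = 0.16) and the keratin gene *krt12.4* (-0.88 ± 0.62, adjusted p = 0.863) also missed it.

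Part of the BMP pathway fell. Of 39 list members in the files 35 were tested, 10 fell and 0 rose in edgeR, and the median log2 fold change was -0.78. At an unadjusted p under 0.05 there were 18 lower and 4 higher, against 1987 of all 15232 genes in both directions together. DESeq2 called 15 lower and 2 higher, against 429 and 522 of all 15232 genes tested. With the replicate block within each tissue 15 were called lower and 4 higher, against 623 and 1051 of all. In edgeR without the block 1.00% of all genes tested fell and 1.29% rose. The falls covered targets (*gata2*, *msx1*, *ventx1.1*, *ventx1.2*, *ventx2.1*, *ventx2.2*), feedback inhibitors (*szl*, *bambi*, *smad7*) and the common mediator *smad4.1*. *bambi*, a decoy receptor that BMP signals induce, had 39.3 and 30 CPM with TSA, against 316 and 239 CPM with DMSO (-3.00 ± 0.23, adjusted p = 0.00571). *msx1*, a homeobox target, had 2.36 and 1.3 CPM with TSA, against 74.8 and 36.7 CPM with DMSO (-4.94 ± 0.63, adjusted p = 0.0176). *smad7*, an intracellular inhibitor, had 16 and 25.7 CPM with TSA, against 104 and 128 CPM with DMSO (-2.48 ± 0.28, adjusted p = 0.013). Targets and these 3 inhibitors were thus both among the falls, but not all inhibitors fell. Other secreted regulators of the list were not called and went both ways. *chrd.1* was at 4.159, *nog* at 1.197 and *fst* at 0.999, while *bmper* was at -0.527 and *twsg1* at -0.367. Over the list 26 values were negative and 9 positive. The 4 *ventx* genes lie together on chromosome 7 between 26856592 and 26905834 and fell to unequal degrees, since *ventx2.1* had 66.4 and 78.9 CPM with TSA, against 325 and 224 CPM with DMSO (-1.92 ± 0.25), and *ventx2.2* fell by 1.62 ± 0.23 on the log2 scale. Reads of these copies are partly shared, and their counts were split by an estimate. The ligand gene *bmp4* had 68.3 and 27.9 CPM with TSA, against 178 and 102 CPM with DMSO, and missed the threshold (-1.54 ± 0.45, adjusted p = 0.159), a gene named after its values were seen.

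Neural plate genes went in both directions. Of 37 members in the files 35 were tested, 4 fell and 2 rose, with a median log2 fold change of -0.51, or -0.27 in limma on TPM plus 1 and -0.11 without DMSO replicate 1. With the replicate block within each tissue 7 were called lower and 8 higher, against 623 and 1051 of all 15232 genes tested. Without the block 1.00% of all genes tested fell and 1.29% rose. *otx2*, a factor of the anterior head, had 0.919 and 0.997 CPM with TSA, against 16.1 and 8.5 CPM with DMSO (-3.67 ± 0.37, adjusted p = 0.00909). *irx2*, an Iroquois homeobox gene, had 16.3 and 9.49 CPM with TSA, against 109.5 and 51.9 CPM with DMSO (-2.65 ± 0.45, adjusted p = 0.0364). *sp8*, a zinc finger factor, fell by 2.52 ± 0.24 and the proneural gene *neurog2* by 4.25 ± 0.68 on the log2 scale. *foxd4l1.1*, which keeps neural ectoderm immature, had 40.3 and 34.9 CPM with TSA, against 11.9 and 10.8 CPM with DMSO (1.72 ± 0.29, adjusted p = 0.0364), and *olig2*, a factor of motor neuron and glial precursors, rose by 3.77 ± 0.69. *sox3*, the abundant pan-neural and pluripotency factor, had 796 and 714 CPM with TSA, against 872 and 728 CPM with DMSO (-0.08 ± 0.18, adjusted p = 1), so that its groups overlapped. The Notch target *hes4* had 74.7 and 52.2 CPM with TSA, against 211 and 113 CPM with DMSO (-1.35 ± 0.37, adjusted p = 0.14).

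Part of the mesodermal regulators rose in caps. Of 53 members in the files 44 were tested, 12 rose and 2 fell, while 1.29% of all genes tested rose and 1.00% fell. The median log2 fold change was 1.36, or 0.74 in limma on TPM plus 1. With at least 10 counts in every AC library 30 were tested and the median was 1.81. With the replicate block within each tissue 21 were called higher and 5 lower, against 1051 and 623 of all 15232 genes tested. The list summed to 1305 and 643 TPM in AC with TSA and to 296 and 269 TPM in AC with DMSO, against 4285 to 4432 TPM in VG. *wnt8a*, a ligand of the ventrolateral mesoderm, had 41.1 and 25.1 CPM with TSA, against 0.651 and 2.02 CPM with DMSO (4.57 ± 0.51, adjusted p = 0.0112). *osr1*, a zinc finger factor of intermediate mesoderm, had 9.31 and 8.93 CPM with TSA, against 0.521 and 0.259 CPM with DMSO (4.59 ± 0.36, adjusted p = 0.00571). *snai1*, a repressor of epithelial genes, had 139.9 and 91.7 CPM with TSA, against 15.4 and 19.2 CPM with DMSO (2.74 ± 0.25, adjusted p = 0.00756). Like every gene called higher, all 3 were higher in each TSA library than in either DMSO library. *tal1*, a blood factor, rose by 4.1 ± 0.37, the paraxial protocadherin gene *pcdh8.2* by 4.19 ± 0.41 and *foxc1* by 2.16 ± 0.25 on the log2 scale. Risers also included *foxc2*, *pcdh8*, *tbxt.2*, *hand2* and *twist1*. *cdx1*, a posterior homeobox gene, fell by 4.45 ± 0.61, and *fgf8*, a growth factor gene, had 2.92 and 1.74 CPM with TSA, against 13.7 and 12.38 CPM with DMSO (-2.49 ± 0.40, adjusted p = 0.0316).

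Several classical mesoderm markers were higher without passing the test. *tbxt* had 41.8 and 38.6 CPM with TSA, against 4 and 14 CPM with DMSO (2.15 ± 0.59, adjusted p = 0.142). *myod1*, the master factor of muscle, had 15.2 and 17.9 CPM with TSA, against 0.174 and 1.68 CPM with DMSO (4.11 ± 0.90, adjusted p = 0.0775). It reached 68.7 and 66.2 TPM in TSA caps, against 7.72 and 9.24 TPM in VG with TSA and 0.5 and 0.52 TPM in VG with DMSO. Its log2 fold change in VG was 3.96 (adjusted p = 0.472 in edgeR), close to that in AC. *myf5* had 1.6 and 0.511 CPM with TSA, against 0.174 and 0.155 CPM with DMSO (2.64 ± 0.92, adjusted p = 0.252). In *tbxt* and *myod1* the DMSO libraries lay further apart in ratio than the TSA libraries did. *tbx6* was under 1 CPM in all 4 libraries. The angiogenic factor gene *vegfa* had 8.75 and 13.8 CPM with TSA, against 2.04 and 4.12 CPM with DMSO (1.87 ± 0.44, adjusted p = 0.0918).

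Endodermal and organizer genes moved unevenly. Of 40 endodermal members in the files 39 were tested, 6 rose (among them *sox17a*, *hhex*, *nodal*, *sia2* and *foxa4*) and 3 fell (*admp2*, *pnhd*, *prdm1*), with a median of 0.90, or 0.47 with genes that had 0 counts in a group set at their bound. Of 23 organizer members 22 were tested, 5 rose and 3 fell, with a median of 1.46, or 1.18 with those bounds. The lowest value of that list, -5.64, is that of *szl*, the BMP feedback inhibitor already counted in the BMP list. In limma on TPM plus 1 the medians were 0.23 and 0.56. With at least 10 counts in every AC library they were 0.30 and 1.02, and without TSA replicate 1 the endodermal median was 0.33. The replicate block within each tissue called 12 endodermal genes higher and 4 lower, and 11 organizer genes higher and 3 lower. Of all 15232 genes tested it called 1051 higher and 623 lower, and without it 1.29% rose and 1.00% fell. *sox17a*, the Sox factor that specifies endoderm, lies on chromosome 6 (115156636 to 115158925) and had 87.4 and 67.4 CPM with TSA, against 2.26 and 2.18 CPM with DMSO (5.12 ± 0.22, adjusted p = 0.00111). The neighbouring copy *sox17b.1* had 19.9 and 15.1 CPM with TSA, against 7.38 and 4.27 CPM with DMSO (1.59 ± 0.30, adjusted p = 0.0502), and *sox17b.2* did not separate the groups (0.23 ± 0.65, adjusted p = 1). Reads of the 3 copies are partly shared. *hhex*, a factor of anterior endoderm, had 4.44 and 4.6 CPM with TSA, against 0.434 and 0.958 CPM with DMSO (2.63 ± 0.37, adjusted p = 0.023). *dkk1*, a secreted Wnt antagonist of the organizer, had 4.32 and 3.02 CPM with TSA, against 0.478 and 0.311 CPM with DMSO (3.24 ± 0.49, adjusted p = 0.0276). *foxa4*, a pioneer factor, had 30.6 and 8.41 CPM with TSA, against 2.48 and 1.5 CPM with DMSO (3.31 ± 0.62, adjusted p = 0.0477), with a wide gap between its TSA libraries. *nodal*, the ligand itself, was under 1 CPM in all 4 libraries although it was called (2.05 ± 0.30, adjusted p = 0.0248), and among the organizer genes *pkdcc.1* fell by 3.12 ± 0.45 and among the endodermal ones *admp2* fell by 2.65 ± 0.41.

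Other defining genes of these tissues stayed near 0. *mixer*, an endodermal homeobox gene at 1282 to 1460 TPM in VG, had 3.08 and 1.83 TPM in AC with TSA and 0.84 and 3.15 TPM in AC with DMSO. *gsc*, the organizer gene at 320 to 669 TPM in VG, had 1.14 and 0.15 TPM in AC with TSA and 0.86 and 0 TPM in AC with DMSO. *gata5* had 0.56 and 0.98 TPM in AC with TSA and 0.98 and 1.15 TPM in AC with DMSO, against 19.2 to 76.1 TPM in VG. Groups overlapped in *mixer* and *gsc*, and also in *gata5* on the CPM scale. *not*, an organizer homeobox gene also present in DMSO caps, had 102 and 73.1 CPM with TSA, against 63.9 and 69.3 CPM with DMSO (0.40 ± 0.22, adjusted p = 0.616). *sox17a* itself reached 136 and 85.8 TPM in AC with TSA and stood at 3.3 and 2.59 TPM in AC with DMSO, against 1110 to 1369 TPM in VG. The part that vegetal or marginal cells carried along at dissection have in the rises was not tested.

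Wnt and Notch components changed singly, while 1.29% of all genes tested rose and 1.00% fell. Of 63 Wnt members in the files 48 were tested, 5 rose (*wnt8a*, *wnt9b*, *dkk1*, *fzd9*, *sp5*) and 3 fell (*fzd2*, *axin2*, *axin1*), with a median log2 fold change of -0.11. *wnt9b*, a ligand, had 8.31 and 7.08 CPM with TSA, against 0.347 and 0.777 CPM with DMSO (3.74 ± 0.55, adjusted p = 0.025). *fzd2*, a receptor, had 21.3 and 18.06 CPM with TSA, against 67.9 and 71 CPM with DMSO (-1.82 ± 0.23, adjusted p = 0.0174). Both called ligand genes rose, while 1 receptor gene and both axin scaffold genes fell and another receptor gene, *fzd9*, rose. All 30 Notch members in the files were tested, 2 rose (*hes7.1*, *jag2*) and 4 fell (*dll1*, *jag1*, *hes7.2*, *dlc*), with a median of 0.07. *dll1*, a Notch ligand, had 4.08 and 3.96 CPM with TSA, against 89.9 and 82.5 CPM with DMSO (-4.42 ± 0.62, adjusted p = 0.0226). *jag1*, a further ligand, had 6.15 and 8.64 CPM with TSA, against 34 and 27.7 CPM with DMSO (-2.06 ± 0.29, adjusted p = 0.0226). *hes7.2* fell by 2.44 ± 0.41 on the log2 scale, whereas the adjacent *hes7.1*, 37920 bases away on chromosome 3, rose. The median of the Wnt list changed sign without TSA replicate 1 (0.07) and without DMSO replicate 2 (0.23), and that of the Notch list without TSA replicate 2 (-0.57), without DMSO replicate 1 (-0.42) and without replicate 2 of both groups (-0.02).

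Some genes of later cell types rose in the caps. Of 78 genes of neuron differentiation in the files 61 were tested, 10 rose and 3 fell, with a median log2 fold change of 0.91. With at least 10 counts in every AC library 35 were tested, 8 rose and 3 fell and the median was 0.12, and in limma on TPM plus 1 it was 0.26. With the replicate block within each tissue 22 of the 61 were called higher and 5 lower, against 1051 and 623 of all 15232 genes tested. Without the block 1.29% of all genes tested rose and 1.00% fell. *lhx4*, a motor neuron LIM factor, had 34.2 and 25.6 CPM with TSA, against 5.04 and 4.74 CPM with DMSO (2.61 ± 0.30, adjusted p = 0.013). *insm2*, a zinc finger factor, had 26 and 15 CPM with TSA, against 1.56 and 1.63 CPM with DMSO (3.68 ± 0.45, adjusted p = 0.0156). *pou4f1*, a sensory neuron factor, had 18.9 and 16.3 CPM with TSA, against 0.999 and 1.01 CPM with DMSO (4.13 ± 0.64, adjusted p = 0.0281). Among the 3 that fell were *elavl3*, an RNA-binding protein of young neurons, and *insm1*, a zinc finger factor, which fell by 2.51 ± 0.40 and 2.62 ± 0.47 on the log2 scale. In the list of muscle, heart and blood differentiation 24 of 60 members were tested and 1 rose, while 1.29% of all genes tested rose. A single call is no result about that list. The riser was *cebpa*, a factor of myeloid cells and liver, with 67.1 and 70 CPM with TSA, against 3.39 and 4.2 CPM with DMSO (4.17 ± 0.31, adjusted p = 0.00571).

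Hox genes, which pattern the body axis, were mostly higher by value but low. Of 36 in the files 25 were tested, and 22 had a positive log2 fold change, with a median of 2.46, or 2.17 with genes at 0 counts set at their bound, against 0.00 over all genes tested. With at least 10 counts in every AC library 10 were tested and the median was 1.31, and in limma on TPM plus 1 it was 0.76. A gene near 0 in DMSO caps passes the filter on low counts only through other libraries, which can push such a median up. In edgeR *hoxa9* was the 1 member called, while with the replicate block within each tissue 14 were called higher and 0 lower. Without the block 15 were higher and 0 lower at an unadjusted p under 0.05, against 1987 of all 15232 genes in both directions together. DESeq2 called 6 higher and 0 lower. Over all 15232 genes tested the block called 1051 higher and 623 lower, and DESeq2 522 and 429. *hoxa9* had 3.36 and 1.38 CPM with TSA, against 0.0869 and 0.104 CPM with DMSO (4.55 ± 0.74, adjusted p = 0.034). The whole family summed to 71.1 and 34.1 TPM with TSA, against 33.6 and 15 TPM with DMSO, so the family stayed at a low level. In these sums replicates differed about as much as groups, part of which comes from ribosomal RNA in the TPM total of replicate 2. Within each replicate number the sum was higher with TSA. Among cadherins and protocadherins 27 of 44 were tested, 4 rose and 1 fell, with a median of 0.57, or 0.06 with at least 10 counts in every AC library and 0.13 in limma on TPM plus 1. *pcdh8* had 52.7 and 39.9 CPM with TSA, against 2.95 and 3.08 CPM with DMSO (3.94 ± 0.42, adjusted p = 0.0108), and *pcdh10* rose by 4.09 ± 0.39 on the log2 scale, while *pcdh18*, the next tested gene on chromosome 1, fell by 3.57 ± 0.54. *cdh12* had 164 counts over the TSA libraries, against 2 over the DMSO libraries, a ratio of 78.8 with an exact interval of 21.5 to 656. Of the 276 genes of neurotransmission 138 were tested, *kcnj2* rose and *kcnk5*, another potassium channel gene, fell (-1.74 ± 0.31, adjusted p = 0.0426), with a median of 0.14. Of 80 collagen, laminin and integrin genes 48 were tested and *col1a2* rose (3.28 ± 0.45, adjusted p = 0.0214), with a median of -0.01. Over all genes tested 1.29% rose and 1.00% fell, so the single calls in the neurotransmission and collagen lists are no result about those lists. Among 17 cement gland and anterior genes, all tested, 3 rose, *dkk1* among them, and *ag1* and *otx2* fell, with a median of 0.50.

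Genes of the deacetylases were not called in edgeR. All 17 in the files were tested, 11 of zinc-dependent enzymes, the kind that TSA inhibits, and 6 of sirtuins, which use NAD. Of the 17, 0 were called, against 2.30% of all genes tested, so 0 calls are no result about a list of this size. With the replicate block within each tissue 3 were called lower and 0 higher, against 623 and 1051 of all 15232 genes tested. Without the block there were 4 lower and 0 higher at an unadjusted p under 0.05, against 1987 of all 15232 genes in both directions together. DESeq2 called 4 lower and 0 higher, against 429 and 522 of all. The log2 fold changes ran between -1.28 and 0.52 for the 11, with a median of 0.20 and 1 lower at an unadjusted p under 0.05, and between -1.28 and 0.06 for the 6, with a median of -0.55 and 3 lower. *hdac1* had 488 and 328 CPM with TSA, against 546 and 366 CPM with DMSO (-0.16 ± 0.26, adjusted p = 1), and *hdac2* had 48.3 and 27.7 CPM with TSA, against 63.2 and 33.9 CPM with DMSO (-0.35 ± 0.37, adjusted p = 1). In both genes the groups overlapped, and replicates differed more than treatments. Within each replicate number, however, both genes were lower with TSA, so the overlap does not show that they were unchanged. *hdac8* was at -0.24 ± 0.25. Of 41 genes of deacetylase complexes and acetyltransferases 40 were tested and 0 were called in edgeR, which is no result about that list either. It had 34 negative values, a median of -0.18, 7 lower and 0 higher at an unadjusted p under 0.05, and 1 lower in DESeq2. The Polycomb subunit gene *suz12* had 468 and 562 CPM with TSA, against 536 and 592 CPM with DMSO (-0.13 ± 0.17), and the Sin3-associated *sap18* was at -0.34 ± 0.32.

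Some stress genes rose. Of 40 genes of the p53 and stress list 37 were tested, 6 rose (*dnajb1*, *hspa1l*, *fosb*, *jun*, *sesn1*, *jund*) and 0 fell in edgeR, with a median log2 fold change of 0.40. At an unadjusted p under 0.05 there were 13 higher and 3 lower, against 1987 of all 15232 genes in both directions together. DESeq2 called 11 higher and 1 lower, against 522 and 429 of all. With the replicate block within each tissue 13 were called higher and 3 lower, against 1051 and 623 of all. *dnajb1*, a co-chaperone, had 165 and 146 CPM with TSA, against 31.5 and 25.9 CPM with DMSO (2.44 ± 0.21, adjusted p = 0.00745). *jun*, an AP-1 subunit, had 36.5 and 30.8 CPM with TSA, against 4.21 and 8.21 CPM with DMSO (2.43 ± 0.38, adjusted p = 0.0293). *hspa1l*, a chaperone, rose by 3.27 ± 0.36 and *fosb*, an AP-1 subunit, by 2.84 ± 0.38 on the log2 scale. Of 18 genes known to respond to HDAC inhibitors in mammalian cell lines 17 were tested, 6 rose (*txnip*, *gadd45b*, *myc*, *cdkn2c*, *klf4*, *tubb3*) and 1 fell, with a median of 0.65, which ran up to 1.38 without replicate 2 of both groups. *txnip*, which binds thioredoxin, had 65.1 and 55.8 CPM with TSA, against 8.38 and 8.45 CPM with DMSO (2.84 ± 0.28, adjusted p = 0.00816). *gadd45b* had 46.3 and 22 CPM with TSA, against 3 and 1.55 CPM with DMSO (3.92 ± 0.56, adjusted p = 0.024). *ccnd1*, the G1 cyclin gene, fell to 12.8 and 9.16 CPM with TSA, against 80.5 and 69.3 CPM with DMSO (-2.77 ± 0.28, adjusted p = 0.00888). *myc* was the mildest riser with 145 and 109 CPM with TSA, against 54.7 and 50.9 CPM with DMSO (1.27 ± 0.19, adjusted p = 0.0276). Within the cell cycle list all 52 genes were tested, and 0 rose in edgeR. At an unadjusted p under 0.05 there were 6 lower and 1 higher. DESeq2 called 4 lower and 1 higher, and the replicate block within each tissue 6 lower and 1 higher. Values were negative for 43 of the 52, against 7505 of all 15232 genes tested. In edgeR 2 fell, *ccnd1* and the pocket protein gene *rbl1* (-1.52 ± 0.23, adjusted p = 0.0276), and the median was -0.23. Over all genes tested 1.29% rose and 1.00% fell, so the edgeR calls are no result about the list. Whether the list shifted as a whole was not tested.

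Ribosomal protein, histone and maternal genes gave 0 calls in edgeR. Only 2.30% of all genes tested were called, so 0 calls are no result about lists of these sizes. Of 76 ribosomal protein genes 74 were tested, and 71 had a negative value, with a median log2 fold change of -0.34 and a range of -0.98 to 0.85. At an unadjusted p under 0.05 there were 11 lower and 0 higher, and 1 was lower in DESeq2. Over all genes tested 1987 of 15232 had such a p in both directions together, the share beside which the counts of these 3 lists stand. The median was -0.64 without TSA replicate 1, -0.11 without TSA replicate 2, -0.05 without DMSO replicate 1 and -0.60 without DMSO replicate 2. The summed level of the 76 was 15160 and 8464 TPM with TSA, against 17904 and 9597 TPM with DMSO. In these sums the replicates of a group lay further apart than the groups did, part of which comes from ribosomal RNA in the TPM total of replicate 2. Within each replicate number the sum was lower with TSA. *rpl13* was at -0.22 ± 0.36 and *rps18* at 0.00 ± 0.41 on the log2 scale. Histone genes had a median of -0.12 over 27 tested, with 1 higher and 0 lower at an unadjusted p under 0.05 and 1 higher in DESeq2, *h2az1* being at -0.27 ± 0.39 and *h3-3b* at -0.02 ± 0.26. The 26 maternal and germ plasm genes, all tested, had a median of 0.00, which ran between -0.17 and 0.10 over the alternatives, with 2 higher and 2 lower at an unadjusted p under 0.05 and 1 higher in DESeq2, and the pluripotency factor gene *pou5f3.2* had 2369 and 1829 CPM with TSA, against 2213 and 1988 CPM with DMSO. Its groups overlapped. The median of the histone list changed sign without TSA replicate 2 (0.26) and without DMSO replicate 1 (0.21), and that of the complex list without DMSO replicate 2 (0.02), whereas the collagen list, near 0, changed sign in 7 of the 19 alternatives.

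**Figure D3:**
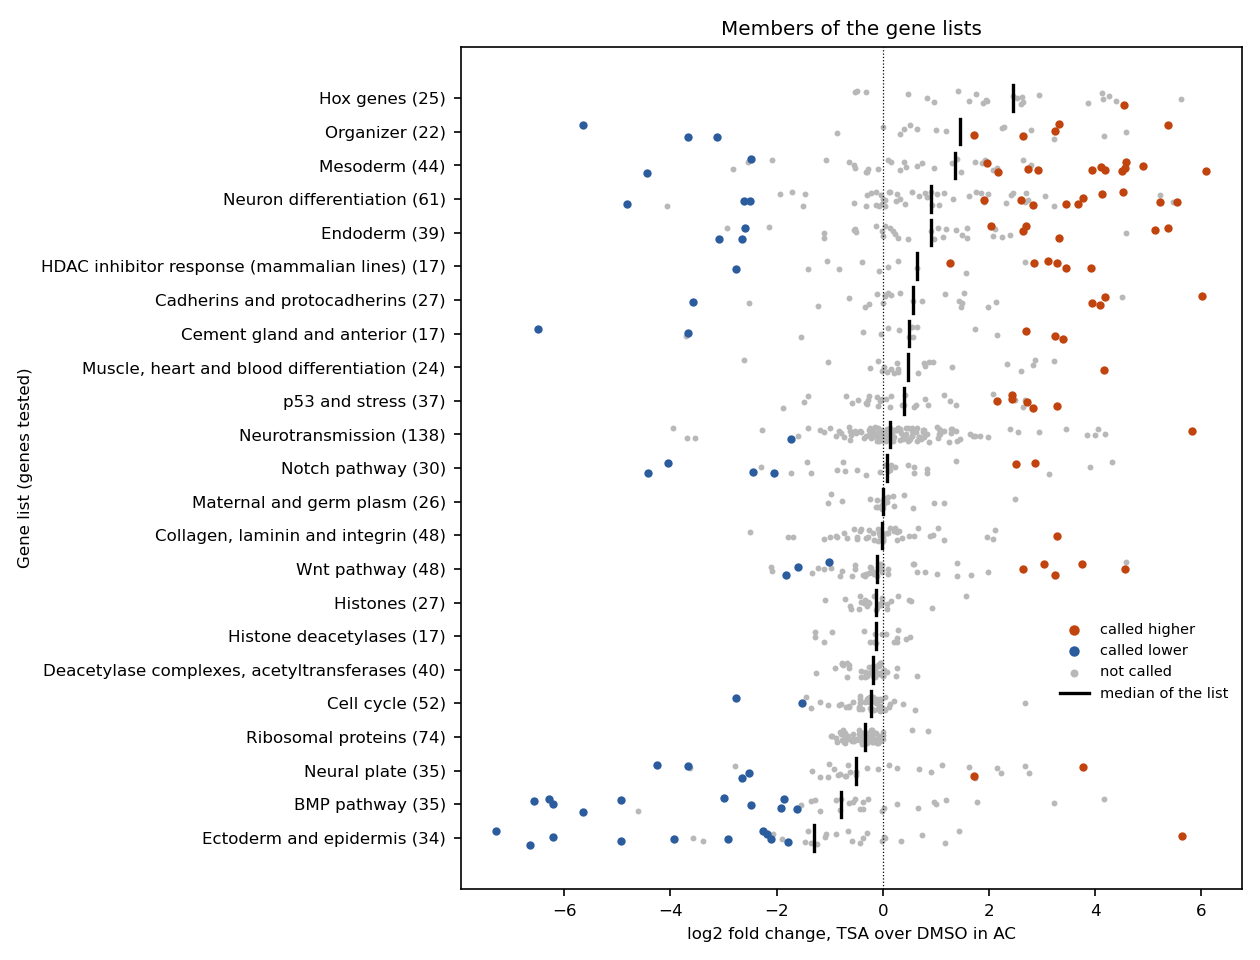
Log2 fold change, TSA over DMSO in AC, of each tested member of 23 gene lists, sorted by the list median (black bar), with the number of tested members in brackets and the median of all genes tested as a dotted line. Hox, organizer and mesoderm lists lie to the right with medians of 2.46, 1.46 and 1.36, and BMP pathway and ectoderm lists to the left with -0.78 and -1.29. With at least 10 counts in every AC library the Hox, organizer and mesoderm medians were 1.31, 1.02 and 1.81, so their order depends on the filter.

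Called genes were sorted by where they are normally expressed, with classes taken from the water-treated explants of the VPA experiment, which share no library with the TSA comparison. There, 918 genes (6.05% of 15166) were higher in AC than in VG and 1348 (8.89%) were lower. Of the AC-enriched genes 907 were tested with TSA, and 50 of them (5.51%) fell and 5 (0.551%) rose. Of the VG-enriched genes 1322 were tested, and 73 (5.52%) rose and 18 (1.36%) fell. Among the 12319 genes of neither class 118 (0.958%) rose and 85 (0.69%) fell. The median log2 fold change in TSA-treated caps was -0.23 for AC-enriched, 0.12 for VG-enriched and 0.00 for other genes, and the same classes had medians of -0.02, 0.01 and -0.01 in TSA-treated VG. VG-enriched genes made up 37.2% of the rises and 11.8% of the falls, and AC-enriched genes 2.55% of the rises and 32.7% of the falls, and 60.2% of the rises and 55.6% of the falls belonged to neither class. A gene near 0 in DMSO caps can be called only higher, so part of this split can follow from level, which was not tested. *gata2*, *otx2* and *prdm12* were among the 18 falling VG-enriched genes.

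**Figure D4:**
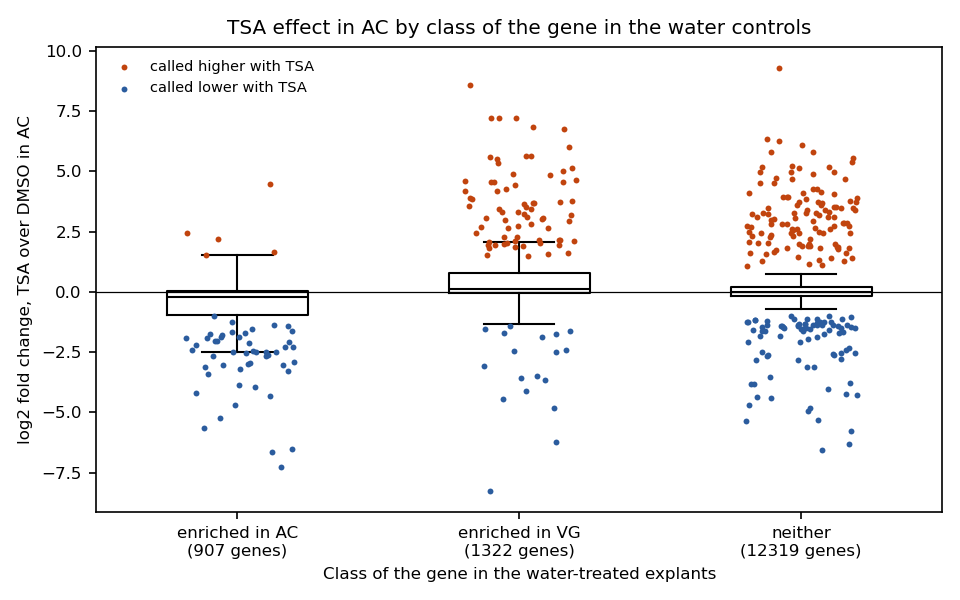
Box plots of the log2 fold change, TSA over DMSO in AC, for the 907 AC-enriched, 1322 VG-enriched and 12319 other genes (box, quartiles; line, median; whiskers, up to 1.5 interquartile ranges), with called genes as red and blue points. Most red points of the localized genes stand in the VG-enriched class and most blue points in the AC-enriched class.

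The edgeR fit shared its spread between the tissues, although replicates lay further apart in AC than in VG. Fewer genes were called with TSA in VG by the same test. There 2 genes (0.0131% of 15232) were called, both lower, *gatd3ala* among them, although 629 genes had an unadjusted p under 0.05 and DESeq2 called 93 higher and 116 lower. Of the 197 genes that rose in AC, 166 had a positive log2 fold change in VG, with a median of 0.66, and of the 153 that fell, 127 had a negative one, with a median of -0.57, while 47% of all genes were positive in VG. *hspa1l* stood at 3.27 in AC and 3.29 in VG, and *wnt9b* at 3.74 in AC and 4.30 in VG, and the difference between tissues missed the threshold for both (adjusted p = 1). The difference between the tissues was tested as an interaction, and 13 genes (0.0853%) had an adjusted p under 0.05 (793 had an unadjusted p under 0.05). *sox17a* had an effect of 5.12 in AC and -0.28 in VG, a difference of 5.41 ± 0.28 (adjusted p = 0.00395), and *gata2* had -6.21 in AC and -1.03 in VG, a difference of -5.18 ± 0.35 (adjusted p = 0.0129). *osr1* was raised in AC and had -1.46 in VG (difference 6.05 ± 0.46, adjusted p = 0.0148). DESeq2 called 230 interactions, and leaving out 1 of the 8 libraries left between 0 and 8, with 0 without VG TSA replicate 1 (617 genes at an unadjusted p under 0.05) and without VG DMSO replicate 1 (655 genes).

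The second inhibitor was tested on other explants with water as control, at a dose and chemistry of its own, so its values are set beside those of TSA. VPA raised 206 genes (1.36% of 15166) and lowered 113 (0.745%) in AC. Of the 197 genes that TSA raised, 196 were tested with VPA, 195 had a positive log2 fold change with a median of 2.38, and 68 were called higher and 0 lower. Of the 153 genes that TSA lowered, 152 had a negative value with a median of -1.55, and 51 were called lower and 0 higher. Over all genes tested in both experiments 50.3% were positive with VPA. *gata2* was at -6.21 with TSA and -6.46 with VPA (adjusted p = 0.00216), *dlx3* at -7.29 and -5.22 (adjusted p = 0.0384) and *tfap2e* at 5.64 and 3.88 (adjusted p = 0.0384). *ventx1.1* stood further apart, at -6.58 with TSA and -2.65 with VPA (adjusted p = 0.0781), as did *nodal3.1*, at 6.75 and 2.42 (adjusted p = 0.346), and *foxd4l1.1* had 1.72 with TSA and -0.03 with VPA (adjusted p = 1). *fgf8*, lower with TSA, had 0.21 with VPA (adjusted p = 0.97). The calls with VPA rested on all its libraries, since leaving out 1 AC library left 1 call without water replicate 1, 2 without water replicate 2, 1 without VPA replicate 1 and 48 without VPA replicate 2.

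**Figure D5:**
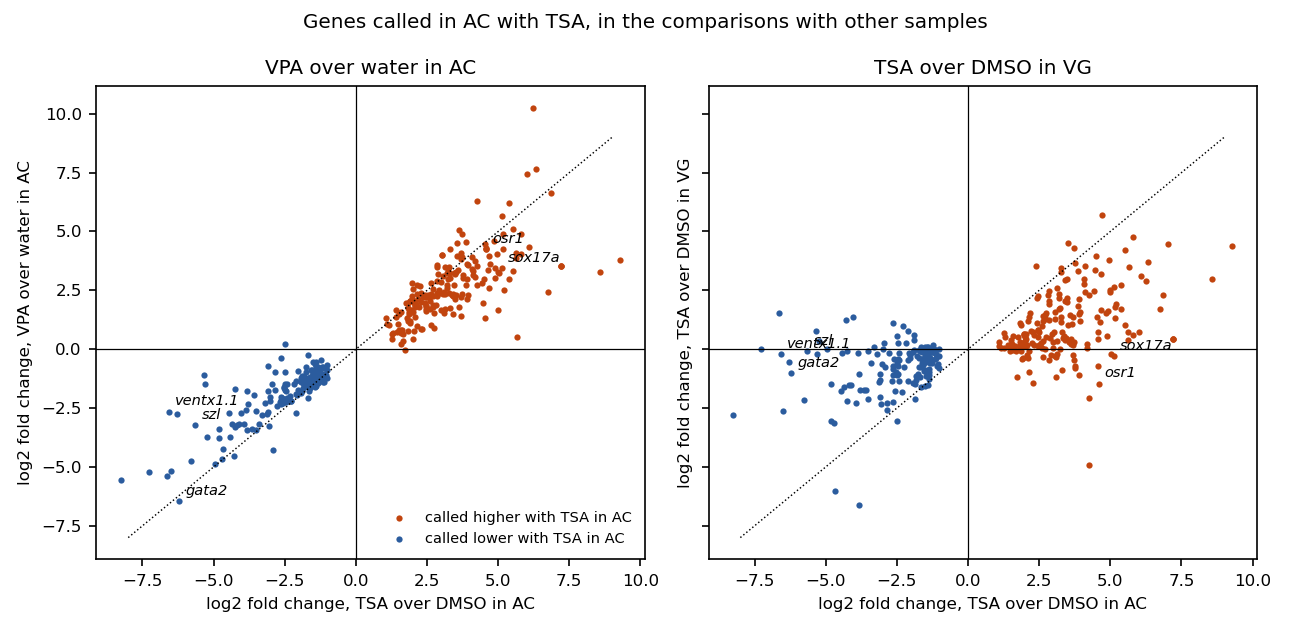
Log2 fold changes of the genes called with TSA in AC (horizontal axis) against VPA over water in AC (left) and TSA over DMSO in VG (right), with red for genes called higher, blue for genes called lower and the dotted line marking equal change. Against VPA 195 of 196 red points lie above 0 and 152 of 153 blue points below it, whereas in VG the points scatter about lower values, with *sox17a*, *osr1*, *szl* and *ventx1.1* near or across 0.

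Chromatin near the called genes was described from peak lists of untreated whole embryos and DMSO-treated explants. A summit of an Hdac1 peak of whole embryos at st9 or st10.5 lay within 10 kb of the gene span for 144 of the 153 genes that fell (94.1%, Wilson 95% interval 89.2 to 96.9%) and for 153 of the 197 that rose (77.7%, 71.4 to 82.9%), against 70.9% of the 15195 tested genes placed on chromosomes. Peaks of acetylated histone H3 (pan-H3Kac) in DMSO-treated explants of both tissues were near 131 of the genes that fell (85.6%) and 79 of those that rose (40.1%), against 60.7% of all. Peaks in VG and not in AC were near 37 of the genes that rose (18.8%) and 5 of those that fell (3.27%), against 8.77% of all. Peaks in AC and not in VG were near 25 of the genes that rose (12.7%) and 15 of those that fell (9.8%), against 13.3% of all. No peak of either tissue was near 56 of the genes that rose (28.4%) and 2 of those that fell (1.31%), against 17.2% of all. These shares were not matched for level in DMSO caps. There 70 of the 197 rises, 0 of the 153 falls and 2262 of all 15232 genes were under 1 TPM in both libraries. The part of level in the shares was not tested. *sox17a*, *osr1* and *cebpa* had acetylation in VG alone, *gata2*, *bambi* and *foxi4.2* in both tissues, *dlx3* in AC alone, and *nodal3.1* and *gpr85* had none and no Hdac1 summit. Peaks were called on replicates together, so these shares carry no replicate error, and with peaks above the median strength the Hdac1 shares were 80.4% of the falls and 50.3% of the rises, against 45.8% of all.

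Some called genes are copies that lie side by side. In 18 cases neighbouring tested genes were both called, 14 times in the same direction and 4 times in opposite directions. The falling *foxi4.2* and *foxi4.1* are 17410 bases apart, and *nodal3.1* is followed on chromosome 3 by 3 rising genes that carry only numbered locus names. Deposited expected counts had a fractional part above 0, with no tolerance, in at least 1 AC library for 44 of the 197 rising genes (22.3%), 15 of the 153 falling ones (9.8%) and 13.9% of all, which marks reads shared with another locus, so the split between such copies is uncertain. The library kit does not record the strand, so that genes overlapping on opposite strands cannot be told apart either.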

How the data were processed

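The study compared gene expression between wildtype *X. tropicalis* explants by poly(A) RNA-seq with a kit that does not record strand. As its methods state, the authors mapped reads with STAR 2.7.3a to the v10.0 genome and deposited RSEM 1.3.3 expected counts and TPM per gene and library. Peak lists deposited by the authors (MACS2 2.7.1) give the fold enrichment and −log10 q of each peak, called on merged replicates, with second H3Kac replicates downsampled by the authors.

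Expected counts were rounded and tested with edgeR 4.0.16 (R 4.3.3), TMM scaling, filterByExpr and the quasi-likelihood test in 1 fit of the 8 libraries of the TSA experiment, and in another of the 8 of the VPA experiment. Calls were made at an adjusted p (Benjamini-Hochberg) below 0.05 with more than 2-fold change, and for the tissue difference the adjusted p alone. With 2 replicates per group, each gene has 4 residual degrees of freedom, to which the quasi-likelihood test adds prior ones estimated over all genes. The SE printed is the absolute log2 fold change divided by the square root of the F statistic of that test. Precision differs with a depth of 16892304 to 54350327 counts. CPM are TMM-scaled. RefSeq symbols (UCB_Xtro_10.0) were found for 26531 of 28850 gene identifiers.

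Named genes were the 12 largest rises and falls with symbols, at least 2 TPM in the higher group and no overlap, the 6 most abundant calls per direction, up to 4 called members of each list (or the 2 most abundant where 0 were called), germ-layer genes the study names on these same samples, which are no independent evidence, and *hdac1* and *hdac2*. Other genes were chosen after their values were seen, among them *bmp4*, *olig2*, *elavl3*, *insm1* and *pcdh18*. Lists and members were chosen with earlier results of these data known. Alternatives were DESeq2 1.42.0, limma 3.58.1 on log2 TPM with a pseudocount of 1 or 0.1, other scalings, filters, samples and replicate blocks, and each library left out. TSA-treated ChIP-seq samples were not used here, and a few genes that these rules name are not reported here.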

Additional observations from a re-analysis of the deposited data

Results flagged for a closer look

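For 13 genes the effect of TSA on the log2 scale differed between AC and VG by the interaction test of edgeR at an adjusted p under 0.05, and 12 of them, all called in AC, are given here. The difference, AC minus VG, was positive for *osr1* (6.047), *sox17a* (5.406), *ras-dva1* (5.205), *slc12a3l* (4.286), *cebpa* (4.103), *foxc1* (3.142) and LOC108648853 (2.829). It was negative for *ventx1.1* (-6.368), *ventx1.2* (-5.760), *szl* (-5.551), *gata2* (-5.180) and *bambi* (-3.004). *foxc1* had 2.16 in AC and -0.98 in VG, and *slc12a3l* had 3.08 in AC and -1.20 in VG. In 8 fits that each left out 1 library, *gata2* and *sox17a* stayed past the threshold 5 times, *osr1* 4 times, *ventx1.1* 3 times, *slc12a3l* 2 times, *ventx1.2* 1 time and the other 6 of the 12 genes 0 times, while all 12 differences kept their sign. The kept signs are no independent support, since these genes were chosen by this test on the same libraries. Groups of 2 libraries allow no search for single outlying samples.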

How the results depend on the processing

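No called gene chosen by the naming rule changed sign in the alternatives run. The choice of these genes made that likely, since both TSA libraries lay beyond both DMSO libraries in every called gene. The medians of the Wnt, Notch, histone, deacetylase complex, collagen and maternal lists did change sign. Without DMSO replicate 1 the calls in AC held fewer higher than lower genes. Of the values of single genes under the alternatives, 1565 kept their sign and their side of the threshold, and 435 lost and 38 gained it. A further 51 values, of genes called in neither fit, changed sign. In AC with TSA (197 higher, 153 lower) DESeq2 gave 522 and 429, only the 4 AC libraries 0 and 0, all 16 libraries 351 and 234, and leaving out replicate 2 of both groups 2 and 0. Leaving out 1 library gave 15 to 57 higher and 16 to 30 lower, and limma on TPM plus 0.1 gave 96 lower. A replicate block gave 234 and 193, nested within each tissue 1051 and 623, and within the 4 AC libraries 852 and 571. The nested block called 14 Hox genes higher and 3 deacetylase genes lower, against 1 and 0 without it. Replicate differences correlated over 15232 genes between AC TSA and AC DMSO (Pearson r = 0.843) and between VG TSA and VG DMSO (0.844), not across tissues (-0.116 with TSA, -0.062 with DMSO). With 2 pairs the samples share only a number in their labels. The pairing is thus seen in the data, within both tissues, and not in the labels. The main fit leaves it out, so shared replicate differences count as error there. In VG (0 higher, 2 lower) DESeq2 gave 93 and 116 and the block 127 and 136. For the difference between tissues (8 higher, 5 lower) DESeq2 gave 133 and 97, the block 602 and 544, and leaving out 1 library 0 to 5 and 0 to 3. For VPA (206 and 113) DESeq2 gave 579 and 322, the block 545 and 278, and leaving out 1 library 0 to 35 and 1 to 13. For AC against VG with water (918 and 1348) leaving out 1 library gave 493 to 631 and 680 to 1026. An Hdac1 summit within 50 kb was near 92.9% of the rises and 98.7% of the falls, against 87.1% of all genes, and with peaks at or above the median fold near 50.3% and 80.4%, against 45.8%. Acetylation in AC alone was near 5.23% of the falls within 50 kb (6.74% of all) and 18.3% with such peaks (16% of all), and acetylation in VG alone near 11.2% of the rises within 50 kb (5.4% of all). The fits that leave out 1 library for the tissue difference, VPA and water were chosen after seeing the data, and where they leave a group with 1 library it is assumed to vary like the others. The causes of these shifts were not tested, except that fits with fewer libraries have fewer degrees of freedom. With 2 libraries a group, and replicates left unpaired in the main fit, small changes were not detectable there.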
